A study of Mus musculus with 10 samples.

Results

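Genes for the proteins that coat and empty lipid droplets were followed in brown fat, the depot that produces heat. The set was chosen by symbol and held 10 genes: the lipases Pnpla2, Lipe and Mgll, the Pnpla2 regulators Abhd5 and G0s2, the perilipins Plin1, Plin2, Plin4 and Plin5, and Cidec. These symbols matched 11 of the 32889 rows of the gene table, because Plin2 was listed at 2 rows. The other Plin2 row carried the identifier of Gm12551, a transcribed pseudogene that overlaps Plin2 by 5312 bases. It held 16.72 counts over all libraries, did not pass the filter on low counts and was not analysed further. All 10 members passed that filter, which left 19676 genes for testing.

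The brown adipose tissue came from wild-type C57BL/6J mice, an inbred strain widely used for work on diet-induced obesity. There were 4 control libraries from mice on a regular chow diet, 3 obesity-prone libraries and 3 obesity-resistant libraries, both of the latter from mice on a high-fat diet. Age, sex, time on the diet and the criterion that set obesity-prone apart from obesity-resistant mice are not given in the sources used here. The labels do not state whether replicates are different animals. The p-values therefore reflect the spread between these samples alone, which may be technical.

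Triacylglycerol is stored in droplets inside the adipocyte and is broken down in steps. PNPLA2 (adipose triglyceride lipase) removes the first fatty acid, LIPE (hormone-sensitive lipase) the next, and MGLL (monoglyceride lipase) the last. ABHD5 (CGI-58) activates PNPLA2 and G0S2 inhibits it. PLIN1 coats the droplets of adipocytes and holds ABHD5 back until protein kinase A phosphorylates it, PLIN2 is the widespread droplet coat that many cell types carry, PLIN4 binds nascent droplets, and PLIN5 links droplets to mitochondria in oxidative tissues. CIDEC (FSP27) lets droplets fuse into larger ones. In brown fat the fatty acids released by these lipases fuel heat production and activate UCP1.

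Before the results, a pair of libraries has to be named. Total counts lay between 35583997 and 37327770 per library. The summed level of 7 brown adipocyte markers was 3729 CPM (counts scaled to library size) in obesity-prone replicate 3 and between 8315 and 12110 CPM in the other 9 libraries. Obesity-prone replicate 3 also had 784 CPM for 7 white adipocyte markers, against 36.2 to 153 elsewhere. Of the 3 depot Hox genes in that list, Hoxc9 and Hoxc10 did not exceed 0.0556 CPM in any library, and Hoxc8 lay between 0.790 and 5.79 CPM with overlapping groups. The 5 erythrocyte markers summed to 22140 CPM in obesity-prone replicate 3 and 6148 CPM in control replicate 4, against 707 to 4750 CPM in the remaining 8. Skeletal muscle markers summed to between 1.10 and 847 CPM and varied within each group. The fold changes of Plin2, Cidec and Pnpla2 are therefore also given without both control replicate 4 and obesity-prone replicate 3. That of Plin4 is also given without obesity-prone replicate 3. Other results rest on all libraries unless a fit is named.

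All 10 genes were expressed in every library. On the length-corrected FPKM scale (fragments scaled by gene length and library size), Pnpla2 stood highest at a mean of 919 over the 10 libraries and ranked 30 among all genes. Cidec followed at 560.2 FPKM, then Lipe at 467, Plin2 at 439, Plin1 at 423, G0s2 at 311, Mgll at 272, Plin4 at 211, Plin5 at 84.5 and Abhd5 at 55.0. Along this order the ranges over the libraries of neighbouring genes overlapped, except that the lowest Plin4 value, 168 FPKM, lay above the highest Plin5 value, 102 FPKM. The most abundant lipase was thus measured far above its activator, Abhd5, which ranked 922. Together the members took 0.772 to 0.972% of all counts of a library, lying between 0.866 and 0.954% in control, between 0.910 and 0.972% in obesity-prone and between 0.772 and 0.893% in obesity-resistant libraries. Every obesity-prone library thus lay above every obesity-resistant one, and the control range overlapped with both. The 0.972% was that of obesity-prone replicate 3, where Plin4 was high, and obesity-prone replicates 1 and 2 held 0.913 and 0.910%. No test was made of these shares.

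**Figure D1:**
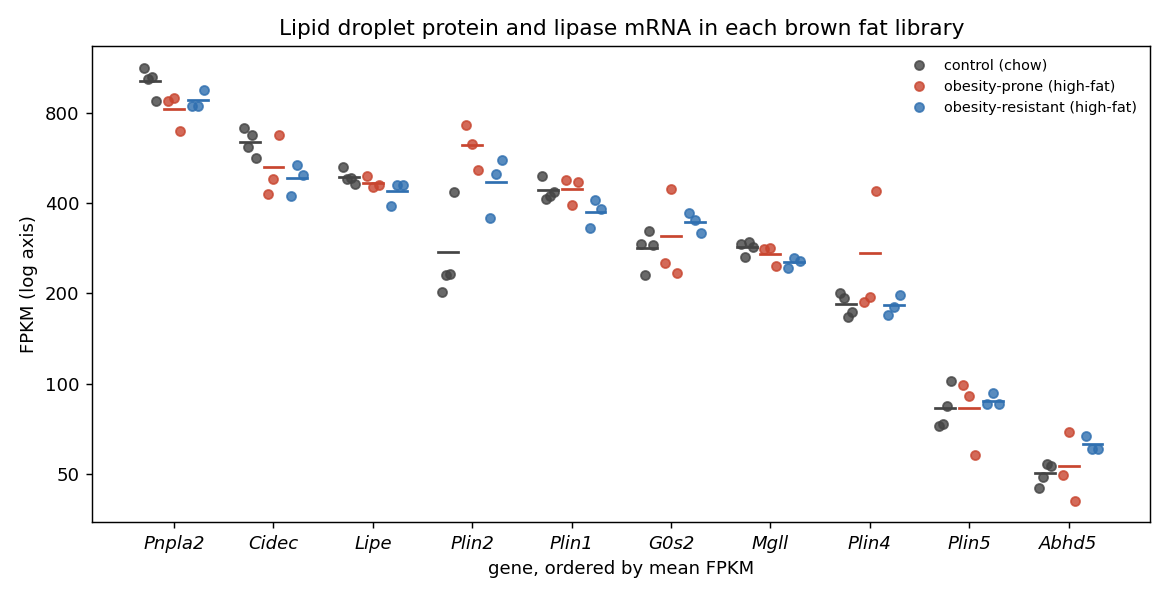
FPKM (log axis) of the 10 genes in each of the 10 libraries, ordered by mean, with a point per library and a bar at each group mean. Plin2 spread the most, from 202 FPKM in control replicate 1 to 729 in obesity-prone replicate 1, and Plin4 stood apart in obesity-prone replicate 3 at 439.

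The members differed widely in how much they varied between libraries. The SD of log2 CPM over the 10 libraries was 0.61 for Plin2, which put it at percentile 95.3 of the 8894 genes with a mean of at least 10 CPM. Plin4 was at percentile 85 and G0s2 at 76.3. Lipe and Mgll were the steadiest, at percentiles 22.8 and 25.5, and the highest Mgll value was 1.22 times the lowest. The highest Plin2 value was 3.60 times the lowest.

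Plin2 was the member that passed edgeR's test on the high-fat diet. It was higher in obesity-prone than in control libraries by 2.17-fold, and it was the only 1 of the 10 members called in that comparison (edgeR quasi-likelihood test, Benjamini-Hochberg adjusted p below 0.05), in which 7.00% of all genes tested were called and 3.71% were called higher. The mean of both high-fat groups lay 1.89-fold above control, again with Plin2 as the 1 member called, against 6.15% of all genes and 2.82% called higher. A count of 1 in 10 is close to these shares of all genes. No member was called when obesity-resistant libraries were set against control, where 0.142% of genes were called, or when obesity-prone were set against obesity-resistant libraries, where 0% were. Without obesity-prone replicate 2, the latter comparison had 662 genes called higher and 209 lower of 20211 tested, and no member. At an unadjusted p below 0.05, edgeR gave 2 members for obesity-prone and 3 for obesity-resistant libraries against control, 0 between these 2 groups and 3 for the high-fat diet against control. In the same order DESeq2 called 1, 1, 0 and 2, against 15.8, 5.80, 2.88 and 13.0% of all genes. The ranges of the groups did not overlap for 1 member in obesity-prone against control (20.3% of all genes), for 4 in obesity-resistant against control (20.2%), for 1 in obesity-prone against obesity-resistant (19.7%) and for 0 in high-fat diet against control (8.10%). The median log2 fold change of the 10 members was -0.07, -0.13, 0.07 and -0.10 in that order, while that of all genes tested was 0.00466, -0.00611, -0.0075 and 0.0024. The comparisons with control share the 4 control libraries, and in whole tissue a change in the share of a cell type cannot be told apart from a change in RNA per cell.

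**Figure D2:**
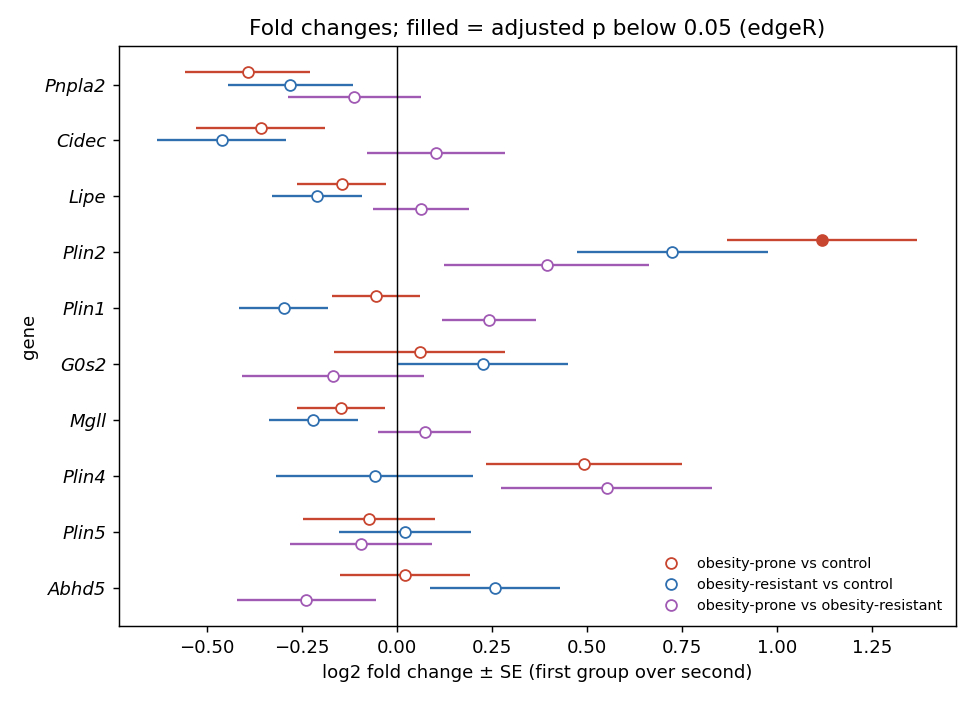
Log2 fold changes with standard errors for the 10 genes in 3 comparisons (colours), with filled points where edgeR's adjusted p was below 0.05. The 1 filled point is Plin2 in obesity-prone against control libraries, at 1.12. Under scaling to 9 adipocyte reference genes the median of all genes in that comparison moved up by 0.62, and the signs of Pnpla2, Cidec, Lipe, Mgll, Plin1 and Plin5 turned there.

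Among the perilipins, Plin2 (identifier 11520, GRCm38.p6 chromosome 4, 86626910 to 86670217, minus strand) measured 368, 427, 438 and 753 CPM in control replicates 1 to 4. It measured 1235, 1124 and 878 CPM in obesity-prone replicates 1 to 3 and 640.4, 844 and 978 CPM in obesity-resistant replicates 1 to 3. Every obesity-prone library thus lay above every control library, a separation upwards that 9.66% of all genes tested showed, whereas control replicate 4 lay above obesity-resistant replicate 1. The group means were 497 ± 174 CPM (SD, n = 4), 1079 ± 183 (n = 3) and 821 ± 170 (n = 3). The log2 fold change was 1.12 ± 0.25 (SE, adjusted p = 0.0314) for obesity-prone and 0.72 ± 0.25 (adjusted p = 0.177) for obesity-resistant against control libraries. For the high-fat diet against control it was 0.92 ± 0.22 (adjusted p = 0.0388). Obesity-prone and obesity-resistant libraries differed by 0.39 ± 0.27 (adjusted p = 0.492), which does not show that their levels were alike.

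The Plin2 call moved with single libraries. Leaving out each library in turn, the log2 fold change of obesity-prone against control ran from 1.0 without control replicate 1 to 1.39 without control replicate 4, and 5 of the 10 fits kept the call. The call was lost without control replicates 1, 2 or 3, obesity-prone replicate 1 or obesity-resistant replicate 2, with an adjusted p of at most 0.10. It was also lost when only the 2 groups were fitted (adjusted p = 0.0774) and with the muscle score as a covariate (0.0538). Without control replicate 4, the obesity-resistant libraries were called too, at 1.0 (adjusted p = 0.0253), in a fit that called 4.42% of all genes there and 15.6% in obesity-prone against control. For the diet as a whole 2 of the 10 fits kept the call, those without control replicate 4 and without obesity-prone replicate 3, which called 13.3 and 8.07% of all genes, and the log2 fold change ran from 0.80 to 1.19.

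**Figure D3:**
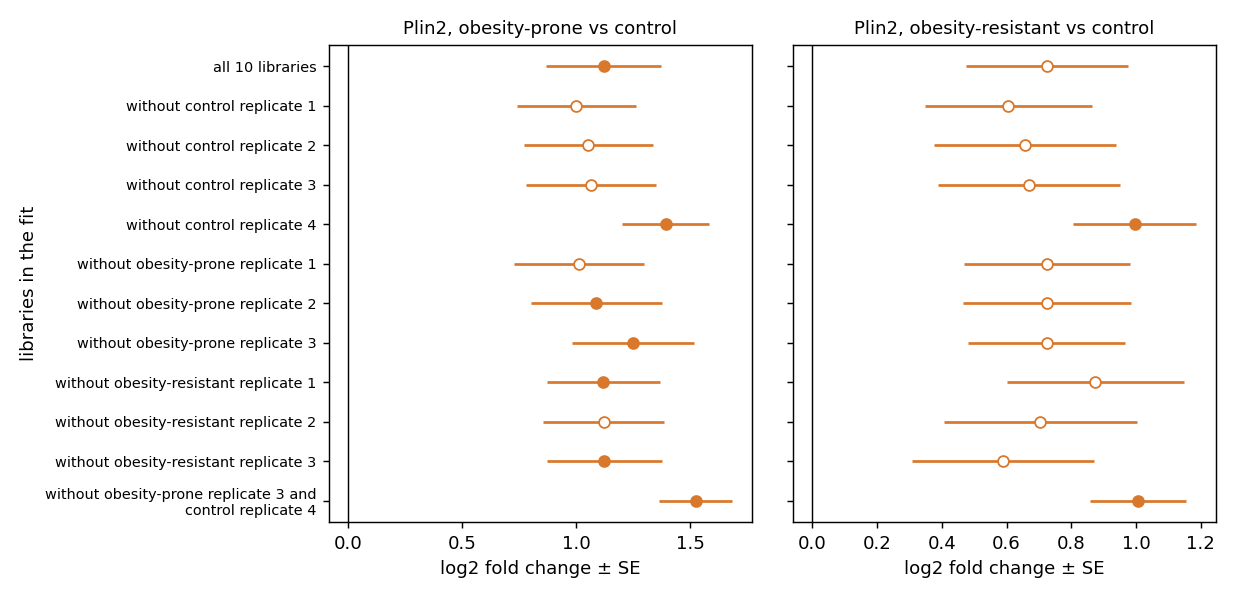
Log2 fold change of Plin2 with its standard error when all 10 libraries were fitted and when the libraries named on the vertical axis were left out, for obesity-prone (left) and obesity-resistant (right) against control; filled points had an adjusted p below 0.05 by edgeR. Every value lay above 0, and without control replicate 4 the obesity-prone value was 1.39 and the obesity-resistant value 1.0.

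Markers of other cell types moved with part of this pattern. The 10 macrophage markers summed to 301, 162 and 470.2 CPM in obesity-prone replicates 1 to 3, to 108 to 190 CPM in control and to 109 to 130 CPM in obesity-resistant libraries. Of these markers 3 of 10 were called higher in obesity-prone than in control libraries, Lyz2, Tyrobp and Gpnmb, against 3.71% of all genes. In obesity-prone against obesity-resistant libraries all 10 lay above 0, at a median log2 fold change of 1.53. There 10 had an unadjusted p below 0.05 by edgeR and 0 were called. Plin2 was at 1124 CPM in obesity-prone replicate 2, whose macrophage sum lay within the control range, and at 640.4 to 978 CPM in the obesity-resistant libraries, whose sums lay between 109 and 130 CPM. In control, replicate 4 had both the highest macrophage sum, 190 CPM, and the highest Plin2, 753 CPM. The summed adipocyte reference markers were lower in obesity-prone libraries, 11960 to 14790 CPM against 17010 to 17930 in control. Called lower were 2 of 9, Cfd and Fabp4, where edgeR called 7.00% of all genes. In obesity-resistant libraries the adipocyte reference markers summed to 15150 to 16750 CPM, also below every control library. There 0 of 9 were called, against 0.142% of all genes. All 5 erythrocyte markers lay above 0 in obesity-prone against control libraries, at a median log2 fold change of 1.99, and 0 of 5 did in obesity-resistant libraries, at -0.50, with none called in either. The 6 endothelial markers summed to 586 to 1093 CPM in control, with the highest in control replicate 4, to 935 to 1106 in obesity-prone and to 858 to 1045 in obesity-resistant libraries. Of these, 5 of 6 lay above 0 in obesity-prone and 4 of 6 in obesity-resistant libraries against control, with none called. The part of these cell types in the Plin2 result was not tested.

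Promoter sequence is shown for Plin2, for Cidec and Pnpla2, which were called beside it once 2 libraries were left out, and for Plin1, the other main adipocyte perilipin. Each run reads 5′ to 3′ on the strand of the gene and ends before the outermost start that RefSeq annotates on GRCm38.p6. The Plin2 window is chr4:86670218-86670309, that of Cidec chr6:113435761-113436010 and that of Plin1 chr7:79732905-79733026, all on the minus strand, and that of Pnpla2 is chr7:141454938-141455187 on the plus strand. Capitals mark the matches to any of 8 motifs searched on both strands.
Plin2: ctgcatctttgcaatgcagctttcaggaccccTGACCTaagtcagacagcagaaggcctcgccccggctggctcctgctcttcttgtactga
Cidec: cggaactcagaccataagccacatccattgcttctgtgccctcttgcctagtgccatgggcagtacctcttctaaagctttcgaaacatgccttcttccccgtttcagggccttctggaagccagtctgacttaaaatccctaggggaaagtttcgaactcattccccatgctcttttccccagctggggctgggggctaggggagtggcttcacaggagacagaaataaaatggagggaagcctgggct
Pnpla2: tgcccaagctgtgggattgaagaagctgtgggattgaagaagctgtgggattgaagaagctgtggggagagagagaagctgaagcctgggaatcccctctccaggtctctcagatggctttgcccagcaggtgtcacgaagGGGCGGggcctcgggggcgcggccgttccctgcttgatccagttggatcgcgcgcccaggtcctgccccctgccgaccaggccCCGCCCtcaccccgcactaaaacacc
Plin1: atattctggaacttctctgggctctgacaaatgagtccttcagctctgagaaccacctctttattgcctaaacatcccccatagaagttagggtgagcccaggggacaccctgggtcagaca

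The motif in the Plin2 run is AGGTCA on the other strand, the core that nuclear receptors such as the PPARs bind, and those in the Pnpla2 run are the GC box GGGCGG, once on each strand. For all 10 members, 14 windows of 250 bases before an annotated start were searched, beside 32851 such windows genome-wide. AGGTCA was found in 3 of the 14, those of Plin2, Abhd5 and Plin5, and in 14.0% of all windows. The direct repeat of AGGTCA with 1 base of any kind between the copies, which holds AGGTCA itself, was in none of the 14 and in 0.0335% of all windows. The E-box CACGTG was found for Lipe and Mgll, in 2 of 14 against 6.02%, and CCAAT for Plin2, Plin4 and Plin5, in 3 of 14 against 33.8%. GGGCGG was found in 7 of 14 against 32.7%, for Pnpla2, Lipe, Mgll, Abhd5, G0s2 and Plin5. The cAMP response element TGACGTCA, the C/EBP palindrome TTGCGCAA and TATAAA were in none of the 14, against 1.55, 0.164 and 12.4%. These matches describe letters in these windows and say nothing of binding.

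Plin1 (identifier 103968, chromosome 7, 79721164 to 79732904, minus strand) measured 928, 798, 828 and 787 CPM in control replicates 1 to 4. It measured 848, 733 and 828 CPM in obesity-prone and 618, 719 and 700.3 CPM in obesity-resistant replicates 1 to 3. All obesity-resistant libraries lay below all control and all obesity-prone libraries, while the control and obesity-prone ranges overlapped. Of all genes tested 9.71% lay below control in this way, and 9.99% lay higher in all obesity-prone than in all obesity-resistant libraries. The log2 fold change against control was -0.30 ± 0.12 (SE, adjusted p = 0.226) in obesity-resistant libraries, where DESeq2 called it (adjusted p = 0.0428), and -0.06 ± 0.12 (adjusted p = 0.789) in obesity-prone libraries. Obesity-prone against obesity-resistant libraries gave 0.24 ± 0.12 (adjusted p = 0.376).

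Plin4 and Plin5 are neighbours on chromosome 17, 1648 bases apart on the minus strand (Plin4 56100587 to 56109948, Plin5 56111597 to 56117606). Plin4 measured 1138, 1123, 992 and 940.2 CPM in control replicates 1 to 4, and 958, 966 and 1095 CPM in obesity-resistant replicates 1 to 3. In obesity-prone replicates 1 to 3 it measured 1006, 1097 and 2322 CPM, so that 1 library set the group apart. The log2 fold change of obesity-prone against control was 0.49 ± 0.26 (SE, adjusted p = 0.239), and 0.01 without obesity-prone replicate 3 (adjusted p = 0.983), in a fit that called 2.67% of all genes. Plin5 went the other way in that library, at 111 CPM against 147 to 195 CPM in the other 9, and its group means lay between 159 and 170.2 CPM. Its log2 fold changes were between -0.09 and 0.02 in the 3 comparisons of groups, with adjusted p from 0.814 to 0.968.

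The perilipins were also compared with each other within each library. Of the summed FPKM of Plin1, Plin2, Plin3, Plin4 and Plin5, Plin2 made up 20.2, 24.6, 24.7 and 37.1% in control replicates 1 to 4. It made up 47.8, 47.0 and 34.3% in obesity-prone and 36.8, 41.2 and 44.6% in obesity-resistant replicates 1 to 3. Control replicates 1 to 3 lay below all 6 high-fat libraries, and control replicate 4 lay among them. Plin1, the largest share in control libraries at 37.3 to 49.1%, made up 29.4 to 34.1% in the high-fat libraries, with no overlap. The shares are parts of one sum, so a higher Plin2 lowers that of Plin1 and this is not a separate result. The log2 fold change of Plin1 itself against control was -0.06 in obesity-prone and -0.30 in obesity-resistant libraries, neither called by edgeR. Plin4 made up 29.2% in obesity-prone replicate 3 and 12.3 to 20.7% in the other 9 libraries. Plin3, the perilipin outside the set, stayed between 1.43 and 3.42%. The sum itself reached 938 to 1172 FPKM for control, 1342 to 1526 for obesity-prone and 968 to 1253 for obesity-resistant libraries.

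**Figure D4:**
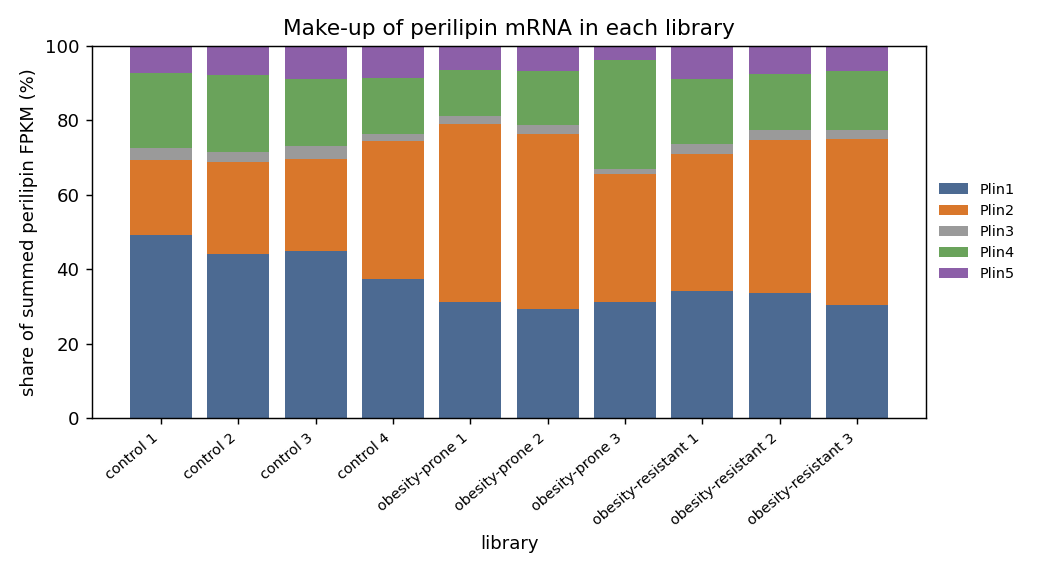
Share of each perilipin (colours) in the summed perilipin FPKM of each library, in percent. Plin2 made up 20.2 to 24.7% in control replicates 1 to 3, 37.1% in control replicate 4 and 34.3 to 47.8% in the 6 high-fat libraries.

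A ratio of 2 genes within a library does not depend on how libraries are scaled. The ratio of Plin2 to Plin1 FPKM was 0.412, 0.557, 0.549 and 0.997 in control replicates 1 to 4, 1.53, 1.60 and 1.10 in obesity-prone, and 1.08, 1.23 and 1.46 in obesity-resistant replicates 1 to 3. All 6 high-fat libraries exceeded all 4 control libraries. The mean log2 ratio differed by 1.14 between the diets (exact two-sided permutation test, p = 0.00952, the smallest that 6 against 4 libraries allow), which did not pass after adjustment over 24 such tests (adjusted p = 0.196). Against control, the difference was 1.22 in obesity-prone and 1.07 in obesity-resistant libraries, each at the smallest p that 3 against 4 libraries allow (exact permutation test, p = 0.0571, adjusted p = 0.196). Plin5 to Plin1 differed by 0.15 between the diets (exact permutation test, p = 0.524, adjusted p = 0.599).

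Of the lipases, Pnpla2 (identifier 66853, chromosome 7, 141455188 to 141460743, plus strand) measured 3018, 2828, 2913 and 2221.5 CPM in control replicates 1 to 4. It measured 2185, 2353 and 1732 CPM in obesity-prone and 2216.5, 2099 and 2464 CPM in obesity-resistant replicates 1 to 3. Control replicates 1 to 3 exceeded all 6 high-fat libraries, and control replicate 4 lay within their range. The log2 fold change against control was -0.39 ± 0.17 (SE, adjusted p = 0.154) in obesity-prone and -0.28 ± 0.17 (adjusted p = 0.401) in obesity-resistant libraries. For the diet as a whole it was -0.34 ± 0.14 (adjusted p = 0.159). Without both control replicate 4 and obesity-prone replicate 3, it was -0.36 in all 3 and passed, with adjusted p of 0.0485, 0.0374 and 0.0172.

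Lipe (identifier 16890, chromosome 7, 25379527 to 25398486, minus strand) ranged from 1276 to 1525 CPM in control libraries, from 1235 to 1330.2 in obesity-prone ones and from 1134 to 1301.5 in obesity-resistant ones. A lncRNA, 4732471J01Rik, overlaps all of it, and its count was 2.58% of that of Lipe. The strand setting of the counting is not given in the sources used here, so reads of the overlap cannot be told apart. Mgll (identifier 23945, chromosome 6, 88724412 to 88828360, plus strand) ranged from 970.4 to 1117 CPM in control, between 831 and 1004 in obesity-prone and between 865 and 900.1 in obesity-resistant replicates. The obesity-resistant range of Mgll lay below the control range, and the other ranges of both genes overlapped with control. Log2 fold changes against control were -0.15 and -0.21 for Lipe and -0.15 and -0.22 for Mgll, obesity-prone first, with adjusted p from 0.351 to 0.448.

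Neither regulator of Pnpla2, its activator Abhd5 or its inhibitor G0s2, passed the test in any comparison. Abhd5 (identifier 67469, chromosome 9, 122351616 to 122381524, plus strand) measured 140.0, 153, 169.9 and 158 CPM in control replicates 1 to 4, 143, 211 and 119 in obesity-prone, and 201, 172 and 185 in obesity-resistant replicates 1 to 3. The obesity-resistant libraries lay above all control libraries, as 10.5% of all genes tested did, and the obesity-prone libraries lay on both sides of them. The log2 fold change against control was 0.26 ± 0.17 (SE, adjusted p = 0.459) in obesity-resistant and 0.02 ± 0.17 (adjusted p = 0.952) in obesity-prone libraries. G0s2 (identifier 14373, chromosome 1, 193272160 to 193273188, minus strand) ranged from 195 to 276 CPM in control, between 180.0 and 360.1 in obesity-prone and between 253 and 302 in obesity-resistant libraries, ranges that overlapped. Its log2 fold changes against control were 0.06 ± 0.23 and 0.23 ± 0.22 (SE, adjusted p = 0.889 and 0.637). Obesity-prone against obesity-resistant libraries gave -0.24 for Abhd5 and -0.17 for G0s2 (adjusted p = 0.541 and 0.756). These values leaned on obesity-prone replicate 2. Without it they were -0.51 and -0.56, and those of obesity-prone against control were -0.25 and -0.33, with none called.

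Both regulators were also set against Pnpla2 within each library. The ratio of Abhd5 to Pnpla2 FPKM lay between 0.0398 and 0.0611 in control, between 0.0570 and 0.0768 in obesity-prone and between 0.0637 and 0.0801 in obesity-resistant libraries. The mean log2 ratio was 0.45 higher on the high-fat diet than in control (exact permutation test, two-sided p = 0.0286, adjusted p = 0.196). That of G0s2 to Pnpla2 was 0.223 to 0.333 in control and 0.289 to 0.496 on the high-fat diet, a difference of 0.45 (exact permutation test, p = 0.0476, adjusted p = 0.196). Lipe to Pnpla2 and Mgll to Pnpla2 differed by 0.16 and 0.15 between the diets (exact permutation tests, adjusted p = 0.274 and 0.294). None of the 24 ratio tests passed after adjustment, and the smallest p of 3 against 3 libraries is 0.1.

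Cidec (identifier 14311, chromosome 6, 113424634 to 113435760, minus strand), the droplet fusion protein, measured 1231, 1099.9, 1227 and 938 CPM in control replicates 1 to 4. It measured 705, 833 and 1091 CPM in obesity-prone and 731, 874 and 843 CPM in obesity-resistant replicates 1 to 3. The obesity-resistant libraries lay below all control libraries, as 9.71% of all genes tested did, and obesity-prone replicate 3 alone reached into the control range. The log2 fold change against control was -0.36 ± 0.17 (SE, adjusted p = 0.195) in obesity-prone, -0.46 ± 0.17 (adjusted p = 0.201) in obesity-resistant and -0.41 ± 0.14 (adjusted p = 0.108) in all high-fat libraries. DESeq2 called the last (adjusted p = 0.0305), where it called 13.0% of all genes. So did edgeR without obesity-prone replicate 3, at -0.50 (adjusted p = 0.0262), in a fit that called 8.07% of all genes. Of the 10 fits that left a library out, that was the 1 that called Cidec for the diet. The adjusted p of these fits ran up to 0.279.

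Without both control replicate 4 and obesity-prone replicate 3, Plin2, Cidec and Pnpla2 were called in obesity-prone, obesity-resistant and high-fat libraries against control. These 3 of 10 members stood against 13.3, 11.1 and 18.6% of all genes called in the same fits. Plin2 then rose by 1.52, 1.01 and 1.26 on the log2 scale (adjusted p = 0.00179, 0.00588 and 0.00107). Cidec fell by 0.62, 0.53 and 0.58 on that scale (adjusted p = 0.0128, 0.0154 and 0.00445). Both libraries were chosen because they stand apart in marker genes, with earlier results of these data known. Control replicate 4 does so in erythrocyte markers. It also held the highest Plin2 and the lowest Cidec and Pnpla2 of its group. Obesity-prone replicate 3 held the lowest Plin2, the highest Cidec and the lowest Pnpla2 of its group. Leaving both out thus widens the Plin2 and Cidec differences by construction, and for Pnpla2 the omissions act in opposite directions. These calls are no separate support.

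These directions are relative to the bulk of genes. With libraries scaled to equal levels of 9 adipocyte reference genes, the median of all genes moved up by 0.62 in obesity-prone, 0.36 in obesity-resistant and 0.49 in high-fat libraries against control, and by 0.23 in obesity-prone against obesity-resistant libraries. Plin2 was then at 1.68, 1.05 and 1.36 against control. The signs of 6, 5, 6 and 3 members turned in these comparisons, those of Pnpla2, Lipe, Mgll and Plin1 in all 3 against control. Relative to the median gene, Abhd5 in obesity-prone against control turned, to -0.01, and no other member did in any of the 4 comparisons.

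Genes around the droplet were described from 4 lists. Of all genes tested, 7.00% were called in obesity-prone and 6.15% in high-fat against control libraries, at median log2 fold changes of 0.00466 and 0.0024. Of 17 other droplet proteins 16 were tested, and in obesity-prone against control libraries 1 was called higher and 1 lower, at a median log2 fold change of -0.12. Cideb, a relative of Cidec best known from the liver, averaged 7.19 ± 0.973 CPM (SD, n = 4) in control libraries and fell to 2.07 ± 0.872 (n = 3), by 1.79 on the log2 scale (adjusted p = 0.0221). Hilpda, a hypoxia-induced droplet protein that inhibits PNPLA2, rose from 1.65 ± 0.323 to 3.25 ± 0.530 CPM, by 0.98 (adjusted p = 0.0239). Leaving out each library in turn, Cideb kept its call in 6 and Hilpda in 5 of 10 fits. Both lost it when only the 2 groups were fitted (adjusted p = 0.0537 and 0.0716). In high-fat against control libraries Cideb was the 1 gene called, at -1.44 (adjusted p = 0.0194).

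Of 16 genes of triacylglycerol synthesis, the pathway that fills droplets, 2 were called higher and 3 lower in obesity-prone against control libraries, with a median log2 fold change of -0.28. Over all genes 7.00% were called there and the median was 0.00466. Lpin2, a phosphatidate phosphatase, rose from 17.9 ± 2.15 CPM (SD, n = 4) to 35.5 ± 1.66 (n = 3), by 0.99 (adjusted p = 0.00413), and kept the call whichever library was left out. Pck1, the glyceroneogenic enzyme that supplies the glycerol backbone, fell from 4193 ± 442 to 2157 ± 256 CPM, by 0.96 on the log2 scale (adjusted p = 0.0142). Dgat1, which adds the last fatty acid, fell from 215 ± 15.9 to 128 ± 16.0 CPM, by 0.75 on the log2 scale (adjusted p = 0.0148). Both lost the call without control replicate 3 and under scaling to the adipocyte reference. They also lost it when only the 2 groups were fitted (adjusted p = 0.0606 for Pck1 and 0.0523 for Dgat1). The remaining 2 called genes, named after their values were seen, were Lpin3 at 0.78 and Gpat4, a glycerol-phosphate acyltransferase, at -1.15 (adjusted p = 0.0385 and 0.0207). For the diet as a whole (6.15% of all genes called) 1 was called higher and 3 lower, with Lpin2 at 0.82, Pck1 at -0.80 and Dgat1 at -0.46 (adjusted p = 0.00532, 0.0134 and 0.0299). That of Dgat1 was kept in 4 of 10 fits that left a library out, and it stood at 0.015 under scaling to the adipocyte reference.

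Of 26 genes that control lipolysis or handle its products, 2 were called higher and 3 lower in obesity-prone against control libraries, with a median log2 fold change of -0.19. Over all genes 7.00% were called there and the median was 0.00466. Adrb3, the adrenergic receptor that switches lipolysis on in fat, rose from 201 ± 22.3 CPM (SD, n = 4) to 421 ± 52.2 (n = 3), by 1.07 (adjusted p = 0.0108), and kept the call whichever library was left out. Npr3, the clearance receptor of natriuretic peptides, rose from 156 ± 89.8 to 565 ± 295 CPM, by 1.86 (adjusted p = 0.0433), with groups that overlapped. Npr3 kept the call in 2 of 10 fits that left a library out. It was at 1.51 (adjusted p = 0.14) without obesity-prone replicate 3 and 2.32 (adjusted p = 0.0117) without control replicate 4. Its call was also lost with no filter, the muscle covariate, only the 2 groups fitted or limma (adjusted p from 0.0581 to 0.105). Prkaca, a catalytic subunit of protein kinase A, at -0.67 and Fabp4, the fatty acid carrier, at -0.52 were also called (adjusted p = 0.0439 and 0.0471) and are named after their values were seen. Fabp4 also counts among the adipocyte reference genes. For the diet as a whole (6.15% of all genes called) 1 was called higher and 4 lower, with Adrb3 at 0.92 and Irs1 at -0.89 (adjusted p = 0.0107 and 0.0403). Adrb3 kept that call in 9 and Irs1 in 2 of 10 fits that left a library out, and Irs1 also lost it with no filter, the muscle covariate, limma or the adipocyte scaling (adjusted p from 0.0561 to 0.0754).

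Of 11 genes for PPAR gamma and other lipogenic transcription factors, 0 were called by edgeR in obesity-prone against control libraries (7.00% of all genes), with 3 at an unadjusted p below 0.05. The lowest p was that of Nr1h3, the oxysterol receptor LXR alpha, at -0.27 (adjusted p = 0.0626), which DESeq2 called (0.0135). For the diet as a whole 1 was called lower, Cebpa, an adipocyte transcription factor, at -0.77 (adjusted p = 0.0436), a call kept in 2 of 10 fits that left a library out and lost with the muscle covariate, limma or the adipocyte scaling (adjusted p from 0.0648 to 0.255). Cebpa is itself among the adipocyte reference genes, so that scaling moves it towards no change by construction. Of these 4 lists, edgeR called 0 genes in obesity-resistant against control libraries (0.142% of all genes), where DESeq2 called 11 (5.80%). The lowest p were those of Lpin2 at 0.65 (adjusted p = 0.0532), Adrb3 at 0.78 (0.0661), Cebpa at -0.80 (0.129) and Cideb at -1.08 (0.135). With the replicate number as a block, edgeR called 2 genes there, Lpin2 at 0.73 (adjusted p = 0.0327) and Adora1, against 1.94% of all genes. The labels do not state that replicate numbers pair libraries. Without control replicate 4 it called 9, against 4.42% of all genes. In obesity-prone against obesity-resistant libraries edgeR called 0 and DESeq2 called 4 (2.88% of all genes), and the lowest p in the lists were those of Fabp5 at 0.60 (adjusted p = 0.230), Dgat1 at -0.58 (0.230), Hilpda at 0.72 (0.231) and Ppargc1a at -0.76 (0.330). At an unadjusted p below 0.05, edgeR gave 21 genes of the 4 lists in obesity-resistant against control libraries and 9 in obesity-prone against obesity-resistant libraries. Without obesity-prone replicate 2, edgeR called 3 genes of the lists in the latter comparison. Among them were Fabp5 at 0.71 (adjusted p = 0.0291) and Dgat1 at -0.66 (adjusted p = 0.04). Over all genes that fit called 662 higher and 209 lower there, of 20211 tested.

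**Figure D5:**
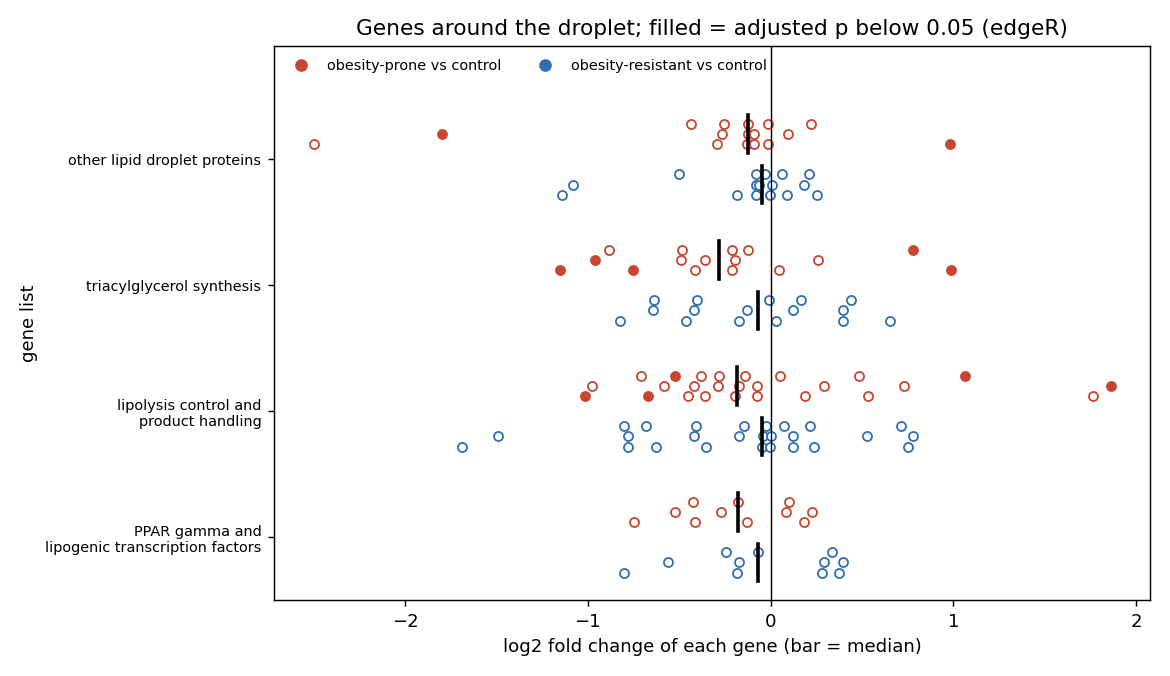
Log2 fold change of every tested gene of the 4 lists in obesity-prone (red) and obesity-resistant (blue) against control libraries, with a black bar at each list's median and filled points where edgeR's adjusted p was below 0.05. All filled points belong to obesity-prone libraries, and the medians there ran from -0.28 to -0.12. Under scaling to 9 adipocyte reference genes the median of all genes moved up by 0.62 in that comparison.

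The genes whose pattern over the 10 libraries lay closest to the most variable members were found by the root mean square difference of gene-centred log2 CPM, among 8679 genes with a mean of at least 10 CPM. For Plin2 these included Chrna2, a nicotinic receptor subunit (0.17), and Wars, a tryptophanyl-tRNA synthetase (0.20). For Plin4 they were Egfr, the growth factor receptor (0.14), H2-K1, a class I histocompatibility gene (0.14), and Npdc1 (0.15). For G0s2 they were Fam49b (0.13), Itprid2 (0.14) and Klf9, a glucocorticoid-induced transcription factor (0.15). Chrna2 averaged 10.5, 21.7 and 17.2 CPM in control, obesity-prone and obesity-resistant libraries. All these genes share the libraries and their scaling with the member, and the likeness is a description without a test.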

How the data were processed

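The authors deposited, per the file headers, expected counts and FPKM per gene and library for 10 brown adipose libraries. Per the labels' protocols, total RNA was extracted with TRIzol and reads were aligned with Bowtie2 2.2.5 and quantified with RSEM 1.2.12. HISAT2 2.0.4 and GRCm38.p6 stand in the submitters' processing notes. The annotation release and strand setting are not given in the sources used here. Group means that the authors added to the table were not used.

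Expected counts were rounded to whole numbers. Genes that passed edgeR's filterByExpr (minimum count 10) were TMM-normalised, and edgeR 4.0.16 (R 4.3.3) fitted a quasi-likelihood model of the 3 groups over all 10 libraries with 7 residual degrees of freedom. P-values were Benjamini-Hochberg adjusted over the 19676 genes tested and called below 0.05. CPM are TMM-scaled, and FPKM served for levels between genes and for ratios, which were compared by exact permutation tests (SciPy 1.17.1). Libraries held 35583997 to 37327770 counts, which limits counting error, and the smallest member level was 111 CPM. On simulated counts for obesity-prone against control (19676 genes), 35.8% of 1.5-fold, 80.6% of 2-fold and 100% of 4-fold changes were recovered, with 7 false calls. Changes were placed in 67, 67 and 66 genes of the obesity-prone group alone, and low-count genes were left unchanged. No simulated library stood apart as some do here, so these shares need not hold for the real libraries.

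The members and the pathway lists were chosen with earlier results of these data known. From each list and comparison, up to 3 called genes with the lowest p are named, or the 1 with the lowest p where none was called; some genes that the naming rules pick are not reported here. Alternatives were DESeq2 1.42.0, 3 other scalings, 2 other filters, only the groups compared, a muscle score covariate, limma 3.58.1 on log2(FPKM + 0.5), + 0.1 or + 1, and leaving out libraries. Replicate numbers 1 to 3 occur in each group. Deviations from the group mean correlated at 0.149, 0.121 and 0.187 between same-numbered control and obesity-resistant libraries, each above 0.1, so the numbers were taken to pair these, from the data and not from the labels. Some differently numbered libraries of these groups correlated more, obesity-resistant 1 with control 4 at 0.254 and obesity-resistant 3 with control 2 at 0.242. The correlations therefore do not establish that pairing. Correlations of obesity-prone with control libraries were -0.0865, -0.104 and -0.146, and with obesity-resistant libraries -0.108, -0.0649 and 0.206. The fit with the replicate number as a block was an alternative. Only control has a replicate 4, so in that fit control replicate 4 has a term of its own and does not bear on the fold changes.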

Additional observations from a re-analysis of the deposited data

Results flagged for a closer look

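The ratio of Lipe to Pnpla2 FPKM in control replicate 4 stood apart from its group. It was 0.530 there and between 0.462 and 0.466 in control replicates 1 to 3, so that the gap to the nearest library was 0.94 of the range of the 4, above Dixon's 95% critical value of 0.829. Both genes were lower in that library than in the other control libraries, Pnpla2 at 2221.5 CPM and Lipe at 1276 CPM. Control libraries were examined in this way for 16 values, the 10 members and 6 ratios, and chance flags about 1 in 20. Control replicate 4 also held the highest Plin2 and the lowest Cidec and Pnpla2 level of the control libraries, and 6148 CPM of erythrocyte markers. Whether these go together was not tested.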

How the results depend on the processing

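With 3 or 4 libraries a group, single libraries decided calls. Leaving out each in turn, 0 to 1 members were called in obesity-prone against control, 0 to 1 in obesity-resistant against control, 0 in obesity-prone against obesity-resistant and 0 to 2 in high-fat diet against control, and 2 (without control replicate 3) to 22 (without control replicate 4), 0 to 9, 0 to 3 and 1 to 22 pathway genes. Calls over all genes moved too. In obesity-prone against control they were 48 higher and 28 lower without control replicate 3, and 1676 and 1364 without control replicate 4. For the high-fat diet they were 28 and 28, and 1229 and 1363, in these fits. In obesity-prone against obesity-resistant they were 0 and 0 with all libraries, and 662 and 209 without obesity-prone replicate 2. The 3 pathway genes called in that comparison came from the fit without obesity-prone replicate 2. Without obesity-prone replicate 3 and control replicate 4 together, 3 members were called in each comparison with control, and 20, 18 and 28 pathway genes in obesity-prone, obesity-resistant and high-fat libraries. Of all genes 13.3, 11.1 and 18.6% were called in these fits. In obesity-prone against control, scaling to the adipocyte reference called 7 members and 36 pathway genes (59.3% of all genes), the muscle covariate 0 and 7, and fitting only the groups compared 0 and 2. Over all genes that scaling called 11511 higher and 156 lower there, against 730 and 647 under TMM. The muscle covariate called 368 and 303 of all genes, and fitting only the groups compared 47 and 19. In obesity-resistant against control, DESeq2 called 1 member and 11 pathway genes (5.80% of all genes) and the adipocyte scaling 2 and 10 (17.6% of all genes). Pathway calls there were 1 with upper-quartile factors, with no filter or with 1 CPM in 3 libraries, 2 with the replicate block and 4 with only the groups compared. Over all genes the replicate block called 188 higher and 194 lower, and only the groups compared 244 and 147. In obesity-prone against obesity-resistant, DESeq2 called 4 pathway genes (2.88% of all genes). For the high-fat diet, DESeq2 called 2 members and 21 pathway genes (13.0% of all genes), the adipocyte scaling 6 and 37 (52.7% of all genes), the muscle covariate 0 and 7, limma 7 pathway genes at each of 3 pseudocounts, and the replicate block 19. Over all genes the muscle covariate called 393 higher and 419 lower there, and the replicate block 687 and 786. With the replicate block, Plin2 was at 1.40 in obesity-prone, 0.99 in obesity-resistant and 1.2 in high-fat libraries against control, and the block changed no member's call. The block sets aside control replicate 4, the only library of its number. Leaving that library out gave 1.39, 1.0 and 1.19, so these are not independent alternatives. Among values called in either fit, signs turned under the adipocyte scaling for Lipe (0.47), Mgll (0.47), Plin1 (0.57) and Nr1h3 (0.35) in obesity-prone and for Lipe (0.32), Mgll (0.31) and Dgat1 (0.015) in high-fat libraries against control. Among members called in neither, they turned for Pnpla2 (0.23), Plin5 (0.51) and Cidec (0.27), and for Pnpla2 (0.17), Plin1 (0.32), Plin5 (0.44) and Cidec (0.10). That scaling raises all genes by the shift given above. For the other settings the cause was not tested. The ratio tests gave 0 calls under each alternative, which says nothing of stability, since 18 of the 24 could not reach 0.05. The only-groups fit is not given for the high-fat diet, which involves all groups.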
